A study of Mus musculus with 3 samples.

Results

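Epithelial cells that carry *Krt6a* transcripts were taken from single-cell libraries of the mouse soft palate at embryonic day E14.5, and they numbered 171 of 15573 cell barcodes. The cells were selected on their own UMI counts. A cell was counted as *Krt6a*-positive when it had at least 500 detected genes, at most 10% of its transcripts from mitochondrial genes, at least 1 unique molecular identifier (UMI, the tag that marks 1 captured transcript) of *Epcam*, at least 5 UMIs summed over *Krt5*, *Krt14*, *Krt8* and *Perp*, at least 2 UMIs of *Krt6a*, and none of *Cdh5*, *Tyrobp* or *Myog*. The cells were thus chosen by these 9 genes, so their levels are given as a description and were not tested. The tissue was the posterior palate of C57BL/6 embryos, dissociated with a trypsin-like enzyme and profiled with 10x Genomics 3′ v2 chemistry. There were 2 control libraries, labelled only as control and, by the study's description, *Tgfbr1 fl/fl* or *Tgfbr1 fl/+* without the Cre, and 1 library of *Osr2-Cre;Alk5fl/fl* embryos, in which *Alk5* is an older symbol of *Tgfbr1*, a TGF-β receptor. The Cre is driven by the *Osr2* locus, which is active in palatal mesenchyme, so the deletion is directed at the mesenchyme around these epithelial cells. Whether a library holds 1 embryo or a pool is not stated in the labels, so p-values below measure only the spread between these 3 libraries, which may be technical.

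*Krt6a* (GRCm38 chr15:101689910-101694307, minus strand) encodes a type II keratin of stressed, migrating and suprabasal keratinocytes. In the embryo it is known as a marker of periderm, the flat outermost layer that covers the basal keratinocytes and keeps facing epithelia from sticking to each other too early. During palate closure, periderm and the epithelial cells of the meeting edges are shed or displaced so that the shelves can fuse, and TGF-β3 made by the edge epithelium is required for this step. The *Krt6a*-negative cells of the same gate, with 0 UMIs of *Krt6a*, served as the comparison and numbered 539.

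Control 1 held 2816 barcodes and 22624711 UMIs, control 2 held 4067 and 27814907, and the mutant held 8690 and 63505144. Of the *Krt6a*-positive cells, 13 came from control 1, 64 from control 2 and 94 from the mutant, and their summed UMIs were 241586, 1205475 and 1610779. Control 1 therefore gives the least precise levels, and single cells weigh heavily there. The *Krt6a*-positive cells were deeper than the *Krt6a*-negative cells in each library, with medians of 17443, 14144 and 14767 UMIs in control 1, control 2 and the mutant against 12891.5, 12993 and 11504. Libraries shared 18, 34 and 49 barcodes pairwise, and no barcode was a *Krt6a*-positive cell in both libraries of a pair.

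Positive cells of control 1, control 2 and the mutant had medians of 12, 7.5 and 5 *Krt6a* UMIs, and the highest counts were 39, 85 and 46. Just outside the threshold stood 6, 11 and 33 epithelial cells with 1 UMI, and just inside it 1, 7 and 19 cells with 2. At these counts free RNA also gives UMIs, so other cell types were read in the same way. Among mesenchymal cells, at least 1 UMI of *Krt6a* was found in 2.29%, 2.65% and 0.446% of cells in the same order of libraries (median depths 7986, 4979.5 and 5202.5 UMIs). At least 2 UMIs were found in 0.158%, 0.112% and 0.125%, and in 0 of 104, 0 of 101 and 0 of 178 myeloid cells, where 0 allows up to 3.48%, 3.59% and 2.05% (exact Clopper-Pearson, 95%). The *Krt6a* threshold of 2 UMIs thus left far fewer mesenchymal than epithelial cells in every library. *Krt6b*, a neighbouring near-identical copy on the same chromosome, was detected in the positive cells of control 2 alone of the 3 libraries, and reads shared by the copies cannot be told apart.

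The share of *Krt6a*-positive cells among the gated epithelial cells came to 12.1% for control 1 (13 of 107, exact 95% interval 6.63 to 19.9), 28.1% for control 2 (64 of 228, 22.3 to 34.4) and 22.1% for the mutant (94 of 425, 18.3 to 26.4). The mutant lay between the controls, whose own intervals did not overlap here, and with 1 mutant library no test between genotypes was made. Intervals cover counting error only. With each cell thinned to 3000 UMIs before the gate was applied, only 34, 59 and 112 epithelial cells passed it. The shares were then 20.6% (7 of 34), 44.1% (26 of 59) and 26.8% (30 of 112), again with the mutant between the controls. The intervals of the controls overlapped (8.70 to 37.9 and 31.2 to 57.6), on far fewer cells than in the main gate.

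**Figure D1:**
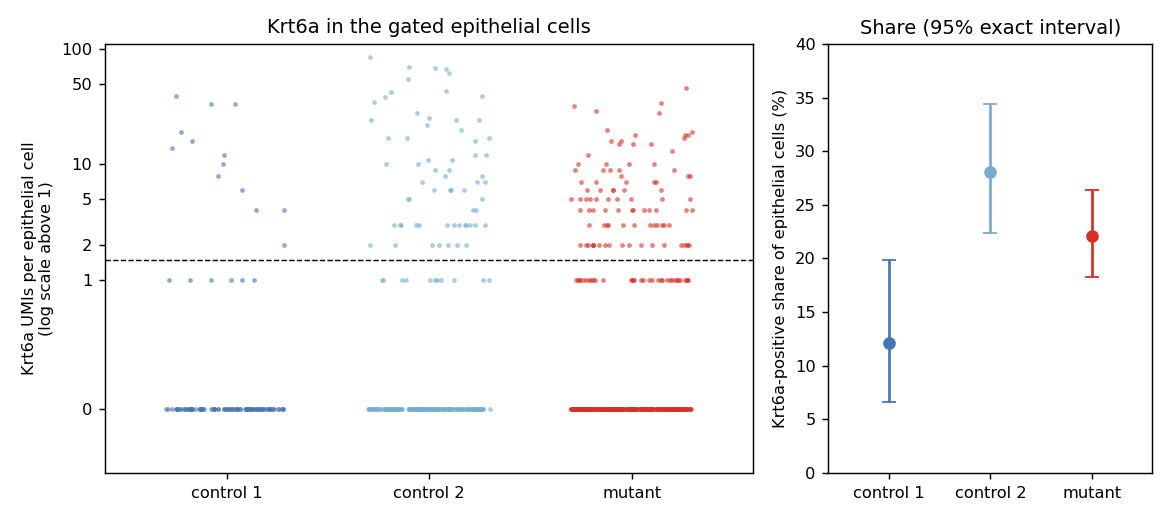
Left, *Krt6a* UMIs in each gated epithelial cell of control 1, control 2 and the mutant (linear below 1, log scale above, 1 point per cell), with the dashed line at the threshold of 2. Right, the *Krt6a*-positive share in percent with exact 95% intervals, where the mutant (22.1%) lies between control 1 (12.1%) and control 2 (28.1%).

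To ask what else distinguishes these cells, UMIs were summed by library and class and compared over the 3 libraries with edgeR's quasi-likelihood test, with the library as a block. Of 10173 genes tested, 534 were higher in *Krt6a*-positive cells (5.25%) and 209 were lower (2.05%) at an adjusted p under 0.05, and 530 and 207 of them had the same sign in all 3 libraries. The median log2 fold of all genes tested was -0.01. Levels below are CPM, counts of a gene scaled to 1000000 UMIs of the class, always in the order control 1, control 2 and mutant. Without control 2, the control with more cells and more summed UMIs, 173 genes were higher and 23 lower, and without the mutant 408 and 80. DESeq2 called 282 and 38, and 253 and 115 of the 3997 genes testable after thinning to 3000 UMIs were called.

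**Figure D2:**
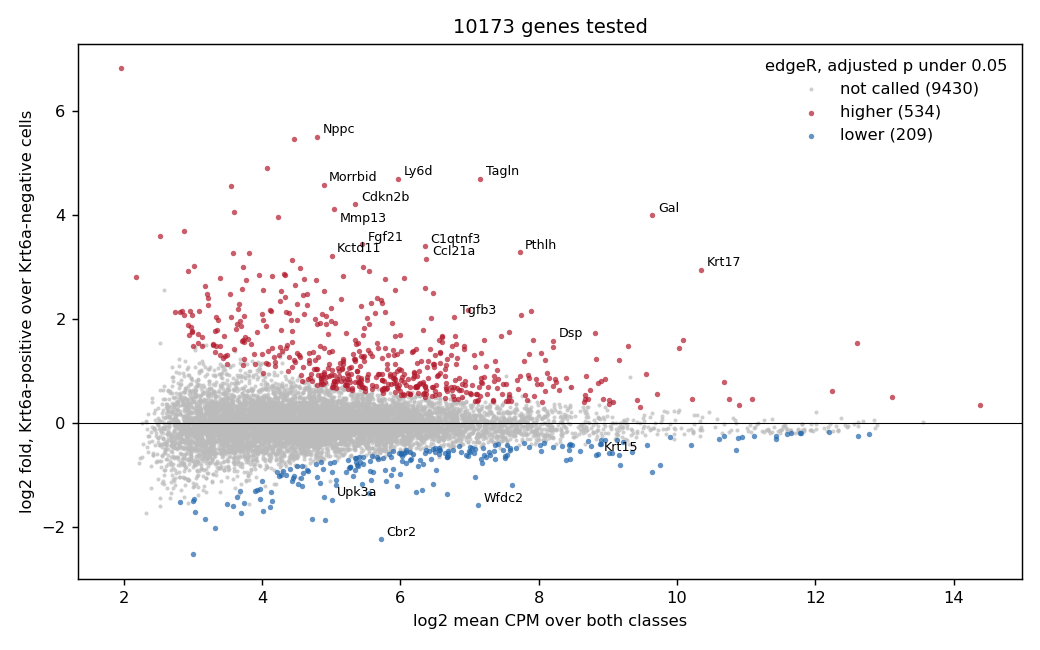
Each point is 1 of 10173 genes, with log2 mean CPM on the x axis and the log2 fold of *Krt6a*-positive over *Krt6a*-negative cells on the y axis. The 534 genes called higher (red) reach larger folds than the 209 called lower (blue), with *Nppc*, *Tagln*, *Ly6d* and *Gal* among the named rises.

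Keratins and other periderm genes are described first. *Krt17*, which encodes a type I keratin that pairs with keratin 6, stood at 2190, 2016 and 2715 CPM in *Krt6a*-positive cells and at 266, 335 and 308 CPM in *Krt6a*-negative cells. The classes did not overlap, and *Krt17* was 7.68-fold higher (log2 fold 2.94, SE 0.10, edgeR adjusted p = 9.01e-10). *Krt16*, a related keratin of activated epidermis, was at 20.7, 86.3 and 22.3 CPM against 0, 1.68 and 0.709 (log2 fold 5.46, SE 0.39, adjusted p = 1.73e-06). A single cell held 79.8% of the *Krt16* UMIs of control 2, 69.4% of those of the mutant and 100% of those of control 1. *Krt16*, *Krt17* and *Krt14* are similar in sequence and lie together on chromosome 11, so reads could be shared between them.

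Of the 18 periderm genes listed, 17 had enough counts to be tested, 13 were higher, 1 was lower and 3 did not pass, with a median log2 fold of 1.48 against -0.01 for all genes. *Grhl3*, a transcription factor of periderm and barrier formation, was at 74.5, 34.8 and 18.6 CPM against 9.33, 9.65 and 4.02 (log2 fold 2.27, SE 0.30, adjusted p = 0.000218). *Gabrp*, a GABA receptor subunit found in periderm, was at 29.0, 28.2 and 11.2 CPM against 0, 1.26 and 0.709 (log2 fold 4.56, SE 0.52, adjusted p = 7.59e-05). *Sfn*, which encodes stratifin of differentiating keratinocytes, rose 1.48 on the log2 scale, and others that rose were *Arhgap29*, *Lgals3*, *Ppl*, *Evpl*, *Krt7*, *Cldn4*, *Rhov* and *Ovol1*, by 1.19 to 2.99. *Evpl* and *Ppl* were no longer called without control 2 (adjusted p = 0.220 and 0.0509), and *Ovol1* without control 1 (adjusted p = 0.0508). *Krt19* fell by 0.65 and was not called without control 2 (adjusted p = 0.439). *Krt18*, a keratin of simple epithelia, was at 232, 183 and 129 CPM against 199, 154 and 85.3 and did not pass (adjusted p = 0.0726), nor did *Klf4*. *Krt4*, a keratin of maturing oral epithelium, had too few counts to be tested, with 0, 26.5 and 1.24 CPM in the positive cells. Most measured periderm markers were thus higher in these cells, while *Krt18* and *Klf4* did not pass and *Krt19* went the other way.

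The genes of the gate did not all follow the same order. *Krt14*, the basal type I keratin, stood at 865, 1365 and 1330 CPM in *Krt6a*-positive cells and at 306, 351 and 508 CPM in *Krt6a*-negative cells. *Epcam* stood at 526, 508 and 431 CPM against 274, 271 and 241. *Krt5* varied most between libraries, at 729, 195 and 74.5 CPM against 258, 171 and 99.7, so that in the mutant it was lower in the positive cells. *Perp*, which encodes a desmosome-associated protein, stood at 501, 345 and 152 CPM against 327, 257 and 162, likewise lower in the positive cells of the mutant alone. *Krt8*, a keratin of simple epithelia, stood at 430, 255 and 190 CPM against 263, 170 and 83.9. The gate itself required transcripts of these genes. Among 16 further basal and hemidesmosome genes, all tested, 6 were higher (*Itga6*, *Itgb1*, *Plec*, *Cd151* and *Lama3* among them), 2 lower and 8 not called, with a median log2 fold of 0.46. *Itga6*, an integrin subunit that anchors basal cells, was at 215, 110 and 78.8 CPM against 46.6, 47.8 and 43.7 (log2 fold 1.30, SE 0.20, adjusted p = 0.000895). *Krt15*, a keratin of resting basal cells, was at 604, 320 and 166 CPM against 952, 494 and 252, lower within every library although the libraries overlap (log2 fold -0.61, SE 0.09, adjusted p = 0.000699). *Trp63*, the transcription factor that maintains basal keratinocytes, was at 45.5, 39.8 and 23.0 CPM against 72.5, 55.8 and 47.0 (log2 fold -0.73, SE 0.19, adjusted p = 0.030), and this call was lost without control 2 (adjusted p = 0.186) and without the mutant (adjusted p = 0.361). Without control 2 the counts for this list were 2 higher and 1 lower.

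Genes of cell adhesion are described next. Desmosomes rivet keratin filaments of adjacent cells together, and of 11 desmosome genes listed 8 had enough counts to be tested and 8 were higher, with a median log2 fold of 1.75. *Dsp*, the desmoplakin that links the junction to keratin, was at 567, 505 and 277 CPM against 124, 159 and 139 (log2 fold 1.58, SE 0.17, adjusted p = 4.87e-05). *Pkp1*, a plakophilin, was at 174, 136 and 44.7 CPM against 15.1, 17.6 and 10.6 (log2 fold 2.78, SE 0.23, adjusted p = 5.74e-06). The desmosomal cadherins *Dsc2*, *Dsc3*, *Dsg2* and *Dsg3* rose by 1.29 to 2.82 and *Jup* and *Pkp3* by 1.58 and 0.79. Without control 2 the list had 6 of 8 higher, *Dsg2* (adjusted p = 0.170) and *Pkp3* (adjusted p = 0.468) being the members lost, and *Pkp3* was also lost without the mutant (adjusted p = 0.0643).

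Of 21 adherens and tight junction genes, 20 were tested, 11 were higher and none was lower, with a median of 0.73; without control 2 the count was 5 higher. *Cdh1*, which encodes E-cadherin, was at 224, 178 and 84.4 CPM against 73.9, 73.8 and 43.9 (log2 fold 1.24, SE 0.14, adjusted p = 8.52e-05). *Nectin4*, which carries cell contacts in skin, rose 2.40, and the claudins *Cldn4*, *Cldn6* and *Cldn23* rose by 1.48 to 1.57. Of these claudins, *Cldn23* was not called without control 2 (adjusted p = 0.262). *Ctnnb1*, at 302, 348 and 351 CPM against 255, 347 and 321, was the most abundant member and did not pass.

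Genes of late stratification were mostly at too low a count to be tested. Of 27 listed, 26 were in the files and 12 were tested, of which 6 were higher and none was lower. *Dmkn*, which encodes dermokine, was at 37.3, 55.6 and 23.0 CPM against 6.46, 2.52 and 4.25, and *Zfp750* and *Grhl1*, transcription factors of epidermal differentiation, rose 2.54 and 2.75. *Krtdap* rose 1.99 and this was lost without control 2 (adjusted p = 0.278). *Notch3*, also called higher, was lost without control 2 (adjusted p = 0.553) and without the mutant (adjusted p = 0.124). *Krt1* and *Krt10*, the keratins of committed spinous cells, did not pass (log2 folds -0.49 and -0.05). *Lor*, *Flg* and *Ivl*, genes of the cornified envelope, were not testable. Of all 49 keratin genes outside the gate, 29 had at least 1 UMI in these cells and 9 were tested, with *Krt16*, *Krt17*, *Krt7* and *Krt80* higher and *Krt15* and *Krt19* lower.

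**Figure D3:**
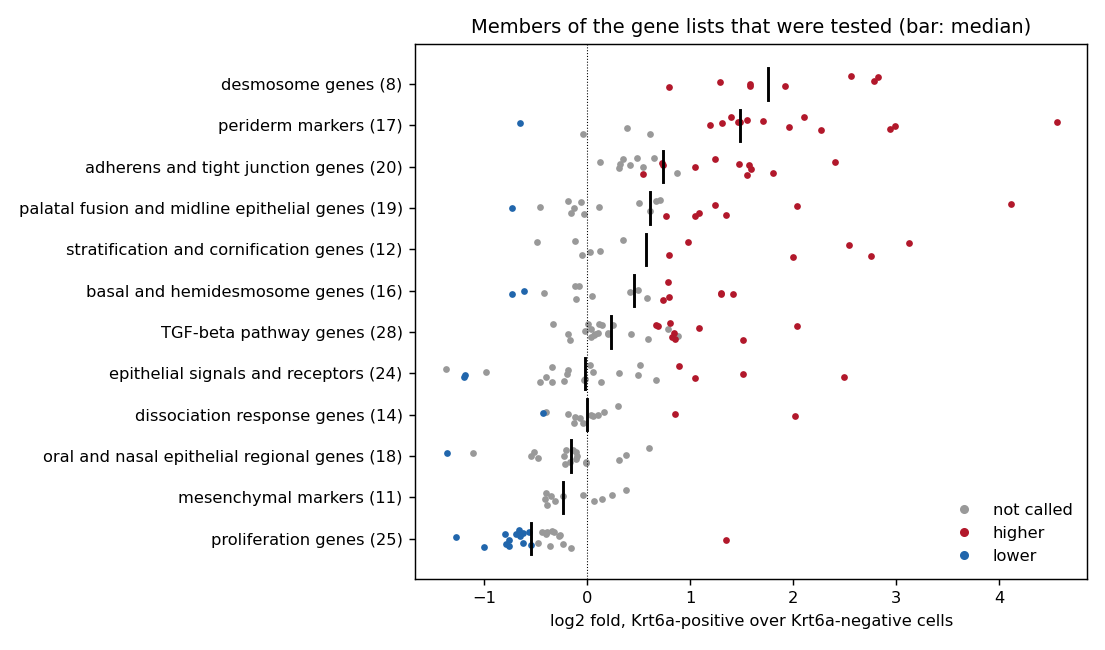
Log2 fold of *Krt6a*-positive over *Krt6a*-negative cells (x axis) for the tested members of 12 gene lists (number tested in brackets). Points are genes, red higher, blue lower and grey not called, and bars are medians, from 1.75 for desmosome genes to -0.54 for proliferation genes.

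Each of the 12 largest rises among genes with at least 50 CPM is given by name. *Nppc*, the precursor of C-type natriuretic peptide, was at 49.7, 48.1 and 66.4 CPM against 0, 0.420 and 2.13 (log2 fold 5.51, SE 0.37, adjusted p = 1.21e-06). *Gal*, the precursor of the neuropeptide galanin, was at 277, 2309 and 1831 CPM against 4.31, 56.6 and 323 (log2 fold 3.99, SE 0.43, adjusted p = 5.29e-05). *Pthlh*, parathyroid hormone-like hormone, was at 546, 381 and 237 CPM against 26.6, 34.0 and 42.5 (log2 fold 3.28, SE 0.23, adjusted p = 1.73e-06). Each of these signals was higher in the positive cells of every library, and *Gal* in the positive cells of control 1 lay below its level in the negative cells of the mutant. *Tagln*, which encodes the actin-binding protein transgelin, was at 418, 181 and 228 CPM against 7.18, 10.5 and 9.69 (log2 fold 4.70, SE 0.21, adjusted p = 1.41e-08), and it was found in 6 of 13, 37 of 64 and 49 of 94 cells. *Cdkn2b*, an inhibitor of CDK4 and CDK6, was at 108, 65.5 and 61.5 CPM against 0.718, 5.03 and 4.02 (log2 fold 4.21, SE 0.32). *Cdkn2a* from the same locus, below the level set for naming and picked after its values were seen, was at 45.5, 31.5 and 21.1 CPM against 0, 2.10 and 0.473.

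Among the other named rises, *Mmp13*, the collagenase 3 gene, was at 95.2, 76.3 and 19.2 CPM against 1.44, 0.839 and 4.25 (log2 fold 4.11, SE 0.51, adjusted p = 0.000156). *Ly6d*, a membrane-anchored keratinocyte protein, was at 190, 162 and 11.8 CPM against 1.44, 7.55 and 1.42 (log2 fold 4.70, SE 0.35, adjusted p = 2.45e-06). In both genes the controls were well above the mutant, and 1 cell held 80.4% of the *Ly6d* UMIs of control 1. *Fgf21*, a hormone of the FGF family, and *C1qtnf3*, a secreted relative of adiponectin, rose 3.44 and 3.40. The long noncoding RNA *Morrbid* rose 4.59, *Kctd11* rose 3.21 and the chemokine gene *Ccl21a*, which has near-identical copies, rose 3.16. The rule for naming required the same sign in all 3 libraries, and each of the 12 remained called without any 1 of them.

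**Figure D4:**
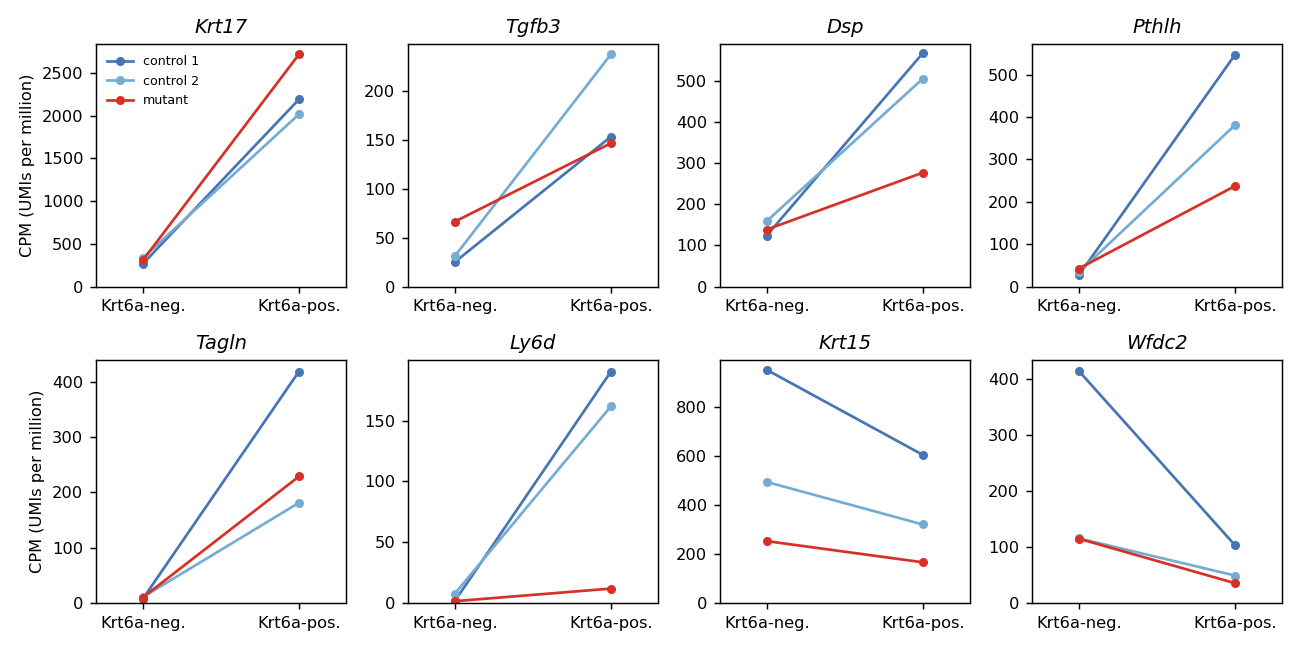
CPM of 8 genes in *Krt6a*-negative (left) and *Krt6a*-positive (right) cells, 1 line per library, y axes from 0. *Krt17*, *Tgfb3*, *Dsp*, *Pthlh*, *Tagln* and *Ly6d* rise and *Krt15* and *Wfdc2* fall in every library, and *Ly6d* rises least in the mutant (11.8 CPM, against 190 and 162 in the controls).

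Promoters were read for shared short sequences because many genes rose together. RefSeq promoters (GRCm38.p6, from 250 bases before to 50 after the start) were found for 10 of the 12 named rises. The sequence TGANTCA, which covers the AP-1 core forms TGACTCA and TGAGTCA and others besides, reads alike on both strands and was searched on both. It was held by 10.7% of the 561 promoters of genes called higher, 1.57% of the 191 of genes called lower, 4.54% of the promoters of genes tested and 7.81% of all 32851. TGACTCA or TGAGTCA alone, counted after these values were seen, were held by 8.56%, 0.524%, 3.30% and 5.20%. The sequence AACCNGTT, which resembles sites of GRHL factors and was searched on both strands because it does not read alike on them, was in 3.21%, 2.62%, 1.90% and 2.09%. Shown here are the 61-base windows around TGANTCA (in capitals) of the 4 genes with the largest rise, at 50 CPM or more, that hold it with 27 bases on each side before the start. The genes are *Mmp13*, *Kctd11*, *Srxn1*, an antioxidant enzyme gene that rose 2.92, and *Plaat3*, a phospholipase gene that rose 2.36, of which *Mmp13* and *Srxn1* hold an AP-1 core form.
Mmp13: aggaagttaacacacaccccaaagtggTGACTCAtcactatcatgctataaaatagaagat
Kctd11: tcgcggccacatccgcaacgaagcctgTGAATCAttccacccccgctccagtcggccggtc
Srxn1: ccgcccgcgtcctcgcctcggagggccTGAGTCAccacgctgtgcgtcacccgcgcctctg
Plaat3: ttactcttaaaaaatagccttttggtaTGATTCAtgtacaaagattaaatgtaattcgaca
They lie at chr9:7272452-7272512 (plus strand), chr11:69881119-69881179 (minus strand), chr2:152105395-152105455 (plus strand) and chr19:7557217-7557277 (plus strand), and are written 5′ to 3′ along each gene. The match is centred 32, 164, 99 and 212 bases before the RefSeq start. The window of *Kctd11* lies inside the span that the GENCODE annotation gives this gene (chr11:69878261-69881406), so by that annotation it is not before the start. *Morrbid* also held a match, across its start. A match describes letters in a window, and no binding was measured.

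Genes lower in *Krt6a*-positive cells were of smaller fold. *Cbr2*, a carbonyl reductase of airway epithelium, was at 37.3, 16.6 and 6.21 CPM against 136, 86.4 and 32.4 (log2 fold -2.24, SE 0.21, adjusted p = 1.72e-05). *Wfdc2*, a secreted protease inhibitor of respiratory and oral epithelium, was at 103, 48.9 and 35.4 CPM against 415, 115 and 115 (log2 fold -1.59, SE 0.15, adjusted p = 1.92e-05). *Cyp2f2*, a cytochrome P450 of airway secretory cells, was at 8.28, 34.8 and 14.3 CPM against 113, 86.0 and 23.9 (log2 fold -1.36, SE 0.27, adjusted p = 0.00578). All 3 were lower in each library. *Upk3a*, *Smoc2*, *Phgdh*, *Ifitm1*, *Mgst1*, *Bcam* and *Lypd2* fell by 1.11 to 1.48. Leaving out control 2 ended the calls of *Cyp2f2*, *Mgst1* and *Lypd2* (adjusted p = 0.134, 0.128 and 0.0787) and leaving out the mutant those of *Upk3a* and *Wnt6* (adjusted p = 0.0765 and 0.0903). *Pdgfa*, a growth factor that epithelia send to the mesenchyme, was at 103, 140 and 99.3 CPM against 311, 280 and 238 (log2 fold -1.20, SE 0.13, adjusted p = 4.08e-05). *Wnt6*, a WNT ligand, was at 12.4, 33.2 and 20.5 CPM against 91.9, 51.6 and 52.0 (log2 fold -1.18, SE 0.24, adjusted p = 0.00733).

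Of 25 proliferation genes, all tested, 13 were lower, 1 was higher and 11 were not called, with a median log2 fold of -0.54. *Top2a*, a topoisomerase of dividing cells, was at 116, 183 and 132 CPM against 201, 294 and 187 (log2 fold -0.62, SE 0.12, adjusted p = 0.00375). *Cdk1*, the kinase that drives mitosis, was at 12.4, 52.3 and 37.2 CPM against 85.4, 91.5 and 70.2 (adjusted p = 0.00581). The 1 member that rose, *Cdkn1a*, encodes the inhibitor p21 and was at 406, 316 and 387 CPM against 182, 169 and 108 (log2 fold 1.34, SE 0.15, adjusted p = 7.59e-05). The falls rest on few libraries: without control 2 none of the 25 was called lower, without the mutant 2 were, and DESeq2 called 1.

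Among TGF-β ligands, *Tgfb3*, the ligand of the fusing palatal edge, was at 153, 237 and 147 CPM against 25.1, 31.0 and 66.4 (log2 fold 2.03, SE 0.26, adjusted p = 0.000218). After thinning to 3000 UMIs, at least 1 *Tgfb3* UMI was found in 38.5%, 56.2% and 39.1% of positive and in 9.30%, 9.33% and 18.8% of negative cells, and the share in mesenchymal cells was 9.29%, 9.63% and 9.25%. *Tgfb3* therefore stood above the other epithelial cells in all 3 libraries. *Tgfb1* and *Tgfb2* rose 1.51 and 0.69, the receptors *Tgfbr2* and *Acvr1* 0.82 and 0.81, the inhibitors *Skil* and *Smad7* 1.08 and 0.67, and *Ltbp1*, which stores latent ligand, and *Tgfbi*, a target, 0.85 each. *Tgfbr1* itself was at 53.8, 67.2 and 54.6 CPM against 56.7, 45.7 and 55.5 and did not pass (adjusted p = 0.57). In all, of 31 pathway genes listed, 30 were in the files and 28 were tested. Of the 28, 9 were higher and none was lower. Without control 2 the count was 1, *Tgfb3*, and without the mutant 7. *Tgfbr2*, *Acvr1*, *Tgfbi* and *Smad7* were not called without the mutant (adjusted p = 0.0536, 0.144, 0.0729 and 0.0650), so the 7 include other members. Of 20 palatal fusion and midline genes, 19 were tested, 7 were higher (*Tgfb3*, *Mmp13*, *Cdh1*, *Nectin1*, *Esrp1*, *Pvr*, *Cdkn1a*) and *Trp63* was lower. Without control 2, 4 were higher, with *Nectin1*, *Esrp1* and *Pvr* lost (adjusted p = 0.223, 0.225 and 0.335), and *Pvr* was also lost without the mutant (adjusted p = 0.118). *Snai1*, *Snai2*, *Zeb1* and *Zeb2*, genes of the epithelial to mesenchymal transition, did not pass.

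Of 32 other epithelial signals and receptors, 24 were tested, 4 were higher, 2 were lower and 18 did not pass. *Hbegf*, an EGF receptor ligand, was at 186, 113 and 155 CPM against 28.7, 21.0 and 29.1 (log2 fold 2.49, SE 0.15, adjusted p = 3.80e-07). *Jag1* and *Notch1*, a ligand and a receptor of the Notch pathway, rose 1.51 and 1.04, and *Wnt7b* rose 0.89, with *Notch1* and *Wnt7b* not called without control 2 (adjusted p = 0.109 and 0.458) and *Wnt7b* not called without the mutant (adjusted p = 0.153). *Shh*, of the palatal ridges, was at 0, 8.30 and 6.21 CPM against 17.9, 17.6 and 8.51 and did not pass (adjusted p = 0.19). Of 26 regional genes of oral and nasal epithelium, 18 were tested, none was higher and 1, *Cyp2f2*, was lower, counts near those that 5.25% and 2.05% of all genes give, while *Pax9* (log2 fold -0.10) and *Sox2* (-0.47) did not pass.

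Within the *Krt6a*-positive cells, *Krt17*, *Ly6d* and *Dsp* were highest with 10 or more *Krt6a* UMIs in every library, and *Krt15* was not. These genes were picked after their values were seen, and the relation is given as a description. *Krt15* was at 57.3, 335 and 145 CPM with 2 *Krt6a* UMIs, at 1296, 350 and 202 CPM with 3 to 9, and at 488, 284 and 104 CPM with 10 or more. *Krt17* was at 344, 715 and 821 CPM in cells with 2 *Krt6a* UMIs, at 1546, 1118 and 2630 CPM with 3 to 9, and at 2526, 3428 and 4094 CPM with 10 or more. *Ly6d* was at 0 CPM in each library with 2 UMIs, at 0, 138 and 5.55 CPM with 3 to 9, and at 255, 249 and 32.2 CPM with 10 or more. *Dsp* was at 516, 254 and 243 CPM with 2 UMIs, at 273, 342 and 259 CPM with 3 to 9 and at 644, 768 and 336 CPM with 10 or more, and did not rise steadily in control 1. Those cells numbered 8, 28 and 22, with median depths of 22930, 13127 and 18490 UMIs, and deeper cells reach 10 UMIs more easily. The cells with 2 UMIs in control 1 were a single cell.

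Transcripts of other cell types were measured alongside. The 11 mesenchymal markers summed to 679, 2387 and 3260 CPM in *Krt6a*-positive and 1575, 2608 and 3184 CPM in *Krt6a*-negative cells. All 11 were tested and none was called. Erythroid markers, led by *Hbb-bs*, summed to 3357, 813 and 1741 CPM against 3200, 828 and 416 (1 of 6 tested higher, *Hba-a2*, 0 without control 2 or without the mutant, and 4 of 5 without control 1, where the median log2 fold was 1.20). Endothelial, myeloid, myogenic and glial markers had no tested member and summed to at most 41.4 CPM in the positive cells of any library, and *Emcn* was at 0 in all 3. The myogenic sum, led by *Actc1*, was 41.4, 9.13 and 1.24 CPM and the myeloid sum 24.8, 24.9 and 1.86 CPM. The endothelial sum was 16.6, 7.47 and 2.48 CPM and the glial sum 4.14, 8.30 and 10.6 CPM. Neuronal markers summed to 12.4, 21.6 and 97.5 CPM (1 of 3 higher, *Tubb3*, which was not called without control 2 or without the mutant, adjusted p = 0.303 and 0.176). Dissociation response genes gave 2 higher, 1 lower and 11 not called of 14 tested, with a median of 0.00. Scrublet, which scores a barcode for holding a pair of cells, called 0, 0 and 1 barcodes at its own threshold, and of the cells with the highest scores at a preset rate, 0, 1 and 7 were *Krt6a*-positive. The counts without those cells were 482 higher and 230 lower. The mesenchymal and erythroid sums differ between libraries, and their part in the comparison of genotypes was not tested.

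For the mutant against the controls, a gene was described as past 2-fold when the mutant lay outside both controls, its log2 CPM ratio to their mean was at least 1 and at least 2 times the gap between them, and the gene reached 50 CPM in either the mutant or each of the controls. With 1 mutant library no test was made. In *Krt6a*-positive cells 3172 genes reached that level, of which 16 were higher (0.504%) and 47 lower (1.48%), while the controls differed from each other by 2-fold or more at 361 genes (11.4%). With TMM scaling, which moved the median of all genes to 0.11, the split was 27 higher and 29 lower. Of the 16 higher genes 14 reached 50 CPM only through the mutant, and of the 47 lower genes 22 only through the controls, so that for these the direction was partly set by how they entered. The rule depends on both controls, with 41 and 70 genes past it without control 1 and 341 and 308 without control 2.

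*Tgfbr1* showed no loss in these cells, at 53.8 (exact Poisson interval 28.7 to 92.0), 67.2 (53.4 to 83.5) and 54.6 (43.8 to 67.3) CPM, a log2 ratio of -0.14 beside a control gap of 0.32. UMIs counted at the 3′ end need not reflect a deletion of internal exons, so this level checks neither the labels nor the deletion. *Osr2*, whose locus drives the Cre, was at 16.6, 86.3 and 54.6 CPM, with the mutant between the controls. *Krt6a* was at 828, 878 and 455 CPM and *Perp* at 501, 345 and 152 CPM, both lowest in the mutant.

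*Ly6d*, which like *Mmp13* and *Hmga1* reached 50 CPM only through the controls, was the lowest of the 47, at 190 (139 to 254), 162 (140 to 186) and 11.8 (7.10 to 18.4) CPM, a log2 ratio of -3.90 beside a gap of 0.24. The level of control 1, and with it the small gap, rests on 1 cell that held 80.4% of its *Ly6d* UMIs. *Ly6d* was found in 4 of 13, 28 of 64 and 7 of 94 cells. The mutant was also below both controls among cells with 10 or more *Krt6a* UMIs, a range without upper limit in which *Krt6a* itself stood at 977, 1798 and 969 CPM. With 3 to 9 *Krt6a* UMIs the mutant lay between the controls in *Ly6d*, and with 2 all 3 libraries were at 0. *Mmp13* was at 95.2, 76.3 and 19.2 CPM (log2 ratio -2.15, gap 0.32) and, by *Krt6a* count, at 57.3, 15.2 and 21.8 CPM with 2 UMIs, at 22.7, 65.3 and 18.9 CPM with 3 to 9 and at 117, 111 and 18.4 CPM with 10 or more. The mutant was thus lowest in the upper ranges and between the controls with 2 UMIs. The levels with 2 *Krt6a* UMIs rest on only 1, 3 and 6 UMIs of *Mmp13*, and that of control 1 with 3 to 9 rests on 1 UMI in 4 cells. *C1qtnf3* and *Ccl21a*, at 273, 144 and 50.3 CPM and at 269, 139 and 50.9 CPM, had ratios of -1.98 and -1.92 beside gaps of 0.93 and 0.96. In *Krt6a*-negative cells *Ly6d* stood at 1.44, 7.55 and 1.42 CPM, with a ratio of -1.22 beside a gap of 2.40. There the ratios of *Mmp13*, *C1qtnf3* and *Ccl21a* were 1.95, 2.52 and 0.56, at levels of at most 19.4 CPM. Whether the ratios of the 2 classes differ was not tested.

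The ratios of the other falls named here were also negative in the *Krt6a*-negative cells. *Hmga1*, a chromatin protein gene, was at 137, 82.1 and 23.0 CPM (log2 ratio -2.21) and had a ratio of -2.13 in *Krt6a*-negative cells. For *mt-Nd3*, a mitochondrial gene, the ratios were -2.08 and -1.86, and for *Hras* -1.87 and -1.17. The 8 named rises all reached 50 CPM only through the mutant. Among them, ratios in positive and negative cells were both above 1 for *Pdzrn4* (3.54 and 3.14), *Gm2000* (1.74 and 1.74), *Fxyd7* (1.69 and 2.38), *Klf2* (2.06 and 2.07), *Col2a1* (2.99 and 2.10) and *Foxp2* (2.46 and 1.66). In negative cells the controls lay 1.98 apart for *Klf2* and 1.25 apart for *Col2a1*, so there these ratios did not reach 2 times the gap. *Klf2* and *Col2a1* had 0 UMIs in the positive cells of control 1, set to 3 for the ratio, and 1 cell held 33.2% of the *Col2a1* UMIs of the mutant. *Pdzrn4* had only 1 and 7 UMIs in the positive cells of control 1 and control 2, and these were used as counted. *Snhg12* and *Lum* had ratios of 1.69 and 1.56 in positive and 0.46 and 0.48 in negative cells.

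Many adhesion and periderm genes lay below both controls. Of the 7 desmosome genes at the level of the rule, 4 reached it only through the controls, so that a lower mutant level followed in part from how they entered. The other 3, which reached 50 CPM in the mutant itself (a split made after these values were seen), were below both controls. Of all 3172 genes 34.9% were, but the 3172 include genes that entered only through the controls. The share among all genes at 50 CPM in the mutant itself was not counted. Of the 3 desmosome genes, *Dsc2* (153, 111 and 52.8 CPM, log2 ratio -1.31) was past 2-fold, and *Dsp* (567, 505 and 277 CPM, -0.95) and *Jup* (265, 246 and 163 CPM, -0.64) were not. *Pkp1* (174, 136 and 44.7 CPM, -1.78), also past 2-fold, was among the 4. In *Krt6a*-negative cells 5 of the same 7 were below both controls, *Pkp1* among them at 15.1, 17.6 and 10.6 CPM, and *Dsp*, at 124, 159 and 139 CPM, was not. Whether the classes differ in this was not tested. The share of all genes below both controls is given for the *Krt6a*-positive cells only. By *Krt6a* count, *Pkp1* was at 172, 35.5 and 21.8 CPM with 2 UMIs, at 114, 71.2 and 37.7 CPM with 3 to 9 and at 189, 241 and 73.6 CPM with 10 or more. The mutant was lowest each time, but the levels with 2 *Krt6a* UMIs rest on only 3, 7 and 6 UMIs of *Pkp1*. *Dsc2* was at 0, 25.4 and 25.4 CPM, at 295, 37.6 and 52.2 CPM and at 133, 219 and 71.3 CPM, with the mutant lowest only with 10 or more.

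The counts of junction and periderm genes at 50 CPM in the mutant itself have no matching share of all genes beside them and are a description only. Of the 9 adherens and tight junction genes at 50 CPM in the mutant itself, 8 were below both controls. Of these *Cdh1* (log2 ratio -1.24) and *Cldn4* (-1.07) were past 2-fold, as was *Nectin1* (70.4, 56.4 and 31.0 CPM, -1.02), which reached the level only through the controls, but only 1 gene of this list was under TMM scaling or with doublets left out. In *Krt6a*-negative cells *Cdh1* was at 73.9, 73.8 and 43.9 CPM and *Cldn4* at 52.4, 62.9 and 28.8 CPM, also lowest in the mutant. Of the 8 periderm genes at 50 CPM in the mutant itself, 6 were below both. In the whole list 4 were past 2-fold, and 2 under TMM scaling or with doublets left out, and *Krt7* (-1.05), *Cldn4* and *Ppl* (-1.49) were among the 4, *Ppl* at the level only through the controls (66.2, 56.4 and 21.7 CPM). *Krt17* was above both controls (2190, 2016 and 2715 CPM, log2 ratio 0.37). The junction and periderm genes past 2-fold and lower numbered 1 and 1 without control 1, and 7 and 10 without control 2, where 1 periderm gene was past it and higher. Under the mean over cells 5 of the 11 periderm genes at the level of the rule were below both controls, beside 1119 of all 3033 genes. In *Krt6a*-negative cells 9 of the 12 periderm and 6 of the 11 junction genes at that level were below both. The share of all genes below both is not given for those cells, so these counts are a description only. *Foxa1* of the regional list, at 53.8, 50.6 and 21.7 CPM (-1.26), was also past 2-fold and reached the level only through the controls. Of the 9 mesenchymal markers at the level of the rule, *Runx2*, *Twist1*, *Pdgfra*, *Prrx1* and *Osr2* reached it only through the mutant. For these a higher mutant level followed in part from how they entered. The mesenchymal markers went the other way from the junction and periderm genes, with 8 of 9 above both controls, beside 30.8% of all genes, and none past the 2-fold rule. Their median log2 ratio of 1.75 became 0.47 without control 1 and 2.76 without control 2, with 1 and 8 of 9 past the rule. The mitochondrial share of the positive cells had a median of 4.03%, 3.51% and 2.55%. The part of these library differences in the lower levels of adhesion genes was not tested.

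**Figure D5:**
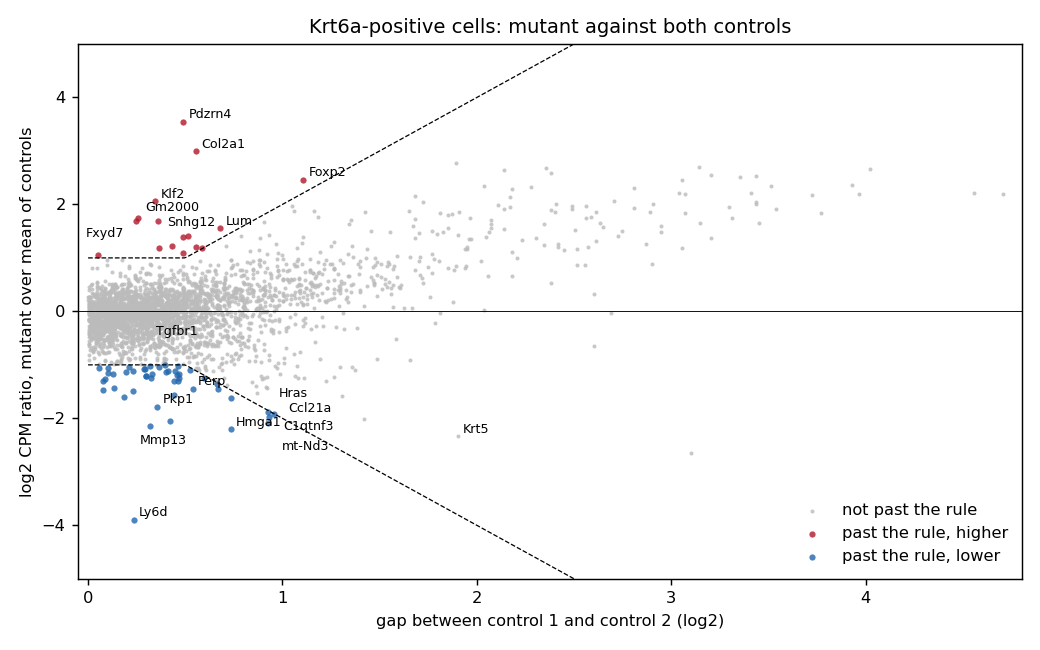
Each point is 1 of 3172 genes in *Krt6a*-positive cells, with the gap between control 1 and control 2 (log2) on the x axis and the log2 CPM ratio of the mutant over the mean of the controls on the y axis. Dashed lines mark the 2-fold rule, past which lie 16 genes above (red) and 47 below (blue), *Ly6d* lowest at -3.90.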

How the data were processed

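The authors deposited raw UMI counts per gene and barcode, 1 matrix per library, without normalization. The extraction protocol and file headers name Cell Ranger 4.0.0, the submitters' processing notes Cell Ranger 3.1.0, and the notes give mm10. Of 32285 features, 32235 IDs were found in GENCODE vM21 (GRCm38), the source of the coordinates.

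Cells were gated as described, UMIs summed per library and class, and 6 sums fitted with edgeR 4.0.16 (R 4.3.3; TMM, filterByExpr, quasi-likelihood test, Benjamini-Hochberg) with the library as a block, since both classes come from 1 tissue suspension. DESeq2 1.42.0 was an alternative. The 9 gate genes stayed in library sizes and out of the test. On simulated counts with 200 changed genes the fit recovered 155 at a log2 change of 1 and 190 at 2, with 6 false calls each.

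Mesenchymal cells had at least 5 UMIs of *Col1a1*, *Col1a2* and *Col3a1*, myeloid cells at least 2 of *Tyrobp*. Scrublet (scanpy 1.11.5) marked 0.8% per 1000 barcodes and these cells were kept. Python 3.11.15 was used.

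Named genes were the 12 largest rises and falls among called genes with 1 sign in 3 libraries and at least 50 CPM (symbols starting Gm or ending Rik left out), and the 8 largest each way past the 2-fold rule, with list members, gate genes, *Tgfbr1* and *Osr2*. The cells, lists and tests were chosen with earlier results of these data known. Some genes that these rules select are not reported here.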

Additional observations from a re-analysis of the deposited data

How the results depend on the processing

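For the 104 named or listed genes called between *Krt6a*-positive and *Krt6a*-negative cells, 1424 values under the alternatives all kept the direction, and 1221 of them also kept their side of the threshold while 203 did not. These genes were picked as called in the main fit and the alternatives reuse most of the same cells, so a kept direction was largely set in advance. After thinning to 3000 UMIs 65 kept the call, 9 did not and the others of the 104 had no value. Medians of lists near 0 did change sign: without control 1 the mesenchymal list went from -0.23 to 0.04 and the epithelial signals from -0.02 to 0.04, thinning took the mesenchymal list to 0.03 and the dissociation list from 0.00 to -0.35, and the neuronal list went from -0.52 to 0.65 without the mutant and 0.67 without doublets. The counts moved more. Against 534 higher and 209 lower, DESeq2 gave 282 and 38, thinning to 3000 UMIs 253 and 115 (3997 genes tested), and no filter on low counts 636 and 481. Without the replicate block, which ignores the pairing of classes within a library, the counts were 152 and 6, all of them shared with the blocked fit. Leaving out 1 library at a time gave 173 to 580 higher and 23 to 273 lower, the lowest without control 2. The shares of *Krt6a*-positive cells were 20.6%, 44.1% and 26.8% with cells thinned before the gate, of only 34, 59 and 112 cells. They were 29.9% and 17.6% in the mutant with thresholds of 1 and 3 UMIs. For the mutant against both controls, TMM factors gave 27 higher and 29 lower, a floor of 20 CPM 63 and 127, and leaving out 1 control 41 to 341 higher and 70 to 308 lower. The causes were not tested. Control 1, with 13 *Krt6a*-positive cells and 241586 UMIs, gave the least precise levels.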
